A study of Mus musculus with 9 samples.

Results

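The Krüppel-like factors (KLF) described here are the products of Klf2, Klf3, Klf4, Klf6, Klf7, Klf10 and Klf13. These 7 genes were chosen by name, with earlier results of these data known. They are rows of the count table, which holds 14209 genes and 15 KLF genes in all, and their values were read in every library. The RNA came from spleen cells of C57BL/6 mice labelled as type 2 conventional dendritic cells (cDC2s), a class of antigen-presenting cell, and was sequenced from 3 genotypes with 3 libraries per genotype. Wild-type (WT) cells were compared with CD97-deficient cells, in which Adgre5, the gene for the adhesion receptor CD97, is knocked out (Adgre5-/-). They were also compared with Gα13-deficient cells, in which floxed Gna13 (Gna13 fl/fl), the gene for the G protein subunit Gα13, is deleted by Cre recombinase under the CD11c promoter. That promoter is active in dendritic cells and also in some macrophages and other CD11c-positive cells, so the deletion is not limited to cDC2s. The genotype label of the Gα13-deficient libraries also contains Adgre5-/-, so both targeted genes were read in every library. The age of the mice, how the cells were sorted and whether each library is 1 mouse are not stated in the labels. P-values therefore reflect the scatter among the sequenced libraries, some of which may be technical.

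KLF proteins are transcription factors with C2H2 zinc fingers at the carboxy terminus that bind GC-rich sequences and CACCC boxes, and they differ mainly in the cofactors their amino termini recruit. Klf2, Klf4, Klf6 and Klf7 belong to the branch that recruits histone acetyltransferases such as p300 and CBP and mostly activates. Klf3, with Klf8 and Klf12, recruits the corepressor CtBP, and Klf10 and Klf13, with Klf9, Klf11 and Klf16, recruit the corepressor Sin3A. In myeloid and lymphoid cells KLF2 is known for quiescence and for control of trafficking genes, and KLF4 for monocyte differentiation and for the development of a subset of cDC2s. In endothelium both are induced by flow through the MEKK3, MEK5 and ERK5 kinases and MEF2 factors.

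Total counts ran from 5679946 to 13904646 per library. Gna13 stood at 227, 228 and 186 CPM (counts scaled to a common library size with TMM factors) in WT replicates 1 to 3, at 227, 217 and 246 in CD97-deficient libraries and at 114, 96.8 and 91.7 in Gα13-deficient ones, a difference from WT of -1.09 ± 0.11 on the log2 scale (SE; adjusted p = 6.84e-05, edgeR quasi-likelihood test, as for all adjusted p below). The Adgre5 gene, listed as Cd97, stood at 1506, 899 and 1299 CPM in WT and at 726, 839.8 and 438 CPM in CD97-deficient libraries, without overlap but short of the threshold (-0.89 ± 0.28, adjusted p = 0.105). Its 1145, 1224 and 1016 CPM in the Gα13-deficient libraries lay within the WT range and above every CD97-deficient library. The difference from the CD97-deficient libraries was short of the threshold (0.76 ± 0.28, adjusted p = 0.779). The lack of overlap rests on 3 libraries per group, and these RNA levels do not settle the Adgre5-/- in the label. All 10 cDC2 markers listed were in the table, with a summed level of 3466 to 4173 CPM in WT, 2988 to 3458 CPM in CD97-deficient and 3296 to 3560 CPM in Gα13-deficient libraries. Of these 10, 4 passed between Gα13-deficient and WT cells, with Irf4 (-0.37, adjusted p = 0.0132), Esam (-0.53, 0.0455) and Cd4 (-0.66, 0.0496) lower and Itgam (0.42, 0.00196) higher, and 0 passed between CD97-deficient and WT cells (3 at an unadjusted p under 0.05, 2 by DESeq2). Across all tested genes 11.0% and 8.53% passed in these comparisons, in this order. The Itgam call held in 9 of 9 leave-one-out fits and Irf4 was lost without Gα13-deficient replicate 2 (0.0629). Esam held in 3 of 9 (kept without CD97-deficient replicates 2 or 3 or Gα13-deficient replicate 1, otherwise 0.0503 to 0.147) and Cd4 in 2 of 9 (kept without WT replicate 2 or Gα13-deficient replicate 1, otherwise 0.056 to 0.147). Expression of Xist and Y-linked genes gave a female pattern in 1 of 3 WT (replicate 2), 3 of 3 CD97-deficient and 1 of 3 Gα13-deficient libraries (replicate 2). The summed level of 7 heat shock genes was 1718 CPM in WT replicate 1 and 344 to 1140 CPM in the other 8 libraries, and that of 22 early response genes was highest in Gα13-deficient replicate 1, at 6706 CPM.

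Klf4 showed the clearest difference of the 7 genes. It stood at 46.6, 52.7 and 48.4 CPM in WT, at 60.5, 59.3 and 65.9 CPM in CD97-deficient and at 102.6, 94.7 and 83.0 CPM in Gα13-deficient libraries. No 2 groups overlapped, with WT lowest and Gα13-deficient cells highest. Against WT, Klf4 rose 1.90-fold in Gα13-deficient cells (95% interval 1.62 to 2.22), or 0.92 ± 0.11 on the log2 scale (SE, n = 3 per group; adjusted p = 0.000166). In CD97-deficient cells the log2 fold change against WT was 0.33 ± 0.11 (95% interval 0.10 to 0.56), with an unadjusted p of 0.00738 and an adjusted p of 0.0687. The knockouts compared directly differed by 0.59 ± 0.10 (0.37 to 0.81, adjusted p = 0.0723). In bulk RNA such a difference cannot be told apart from a change in the share of cells that carry the transcript.

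The Klf4 difference between Gα13-deficient and WT cells passed in 9 of 9 fits that each left out 1 library, with log2 fold changes of 0.849 to 1.004 and a highest adjusted p of 0.00185 (without Gα13-deficient replicate 2). Within the male-pattern libraries, 2 per group, it was 0.97 (adjusted p = 0.00071). Within the female-pattern libraries, 1 per group and so assumed to vary like the others, it was 0.85 and short of the threshold (adjusted p = 0.0943). Without WT replicate 1 and Gα13-deficient replicate 1 together it was 0.81 (adjusted p = 0.00251). The CD97-deficient libraries all had the female pattern, and their Klf4 difference from WT was 0.27 with the sex pattern in the model (adjusted p = 0.367) and 0.22 within female-pattern libraries (adjusted p = 0.701). When library totals replaced the TMM factors it was 0.38 and passed (adjusted p = 0.0417). The direct difference between the knockouts passed without WT replicate 1 (0.60, adjusted p = 0.029), WT replicate 2 (0.59, 0.0331) or Gα13-deficient replicate 3 (0.67, 0.023), and with DESeq2 (0.59, 0.0012).

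Klf2 was the other member whose level rose past the threshold. It stood at 54.4, 56.3 and 62.2 CPM in WT, at 48.3, 64.6 and 77.3 CPM in CD97-deficient and at 117, 72.7 and 88.1 CPM in Gα13-deficient libraries. The Gα13-deficient libraries all lay above WT, replicate 1 by most, while the CD97-deficient libraries spread across the WT range and beyond it at both ends. Klf2 was 1.61-fold higher in Gα13-deficient than in WT cells (95% interval 1.21 to 2.16, log2 fold change 0.69 ± 0.19, adjusted p = 0.0419). This call held in 3 of 9 fits that left out 1 library. Its adjusted p rose past the threshold without WT replicate 1 (0.137), WT replicate 2 (0.103), WT replicate 3 (0.0855), CD97-deficient replicate 2 (0.0596), Gα13-deficient replicate 1 (0.101, log2 fold change 0.49) or Gα13-deficient replicate 3 (0.0824). Without both replicate 1 libraries of WT and Gα13-deficient cells the log2 fold change was 0.45 (adjusted p = 0.232). It was 0.82 within male-pattern libraries (adjusted p = 0.0381) and 0.37 within female-pattern ones (adjusted p = 0.718). Against WT, CD97-deficient cells differed by 0.14 ± 0.19 (-0.28 to 0.56, adjusted p = 0.697), and the knockouts differed from each other by 0.55 ± 0.19 (0.13 to 0.97, adjusted p = 0.687).

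**Figure D1:**
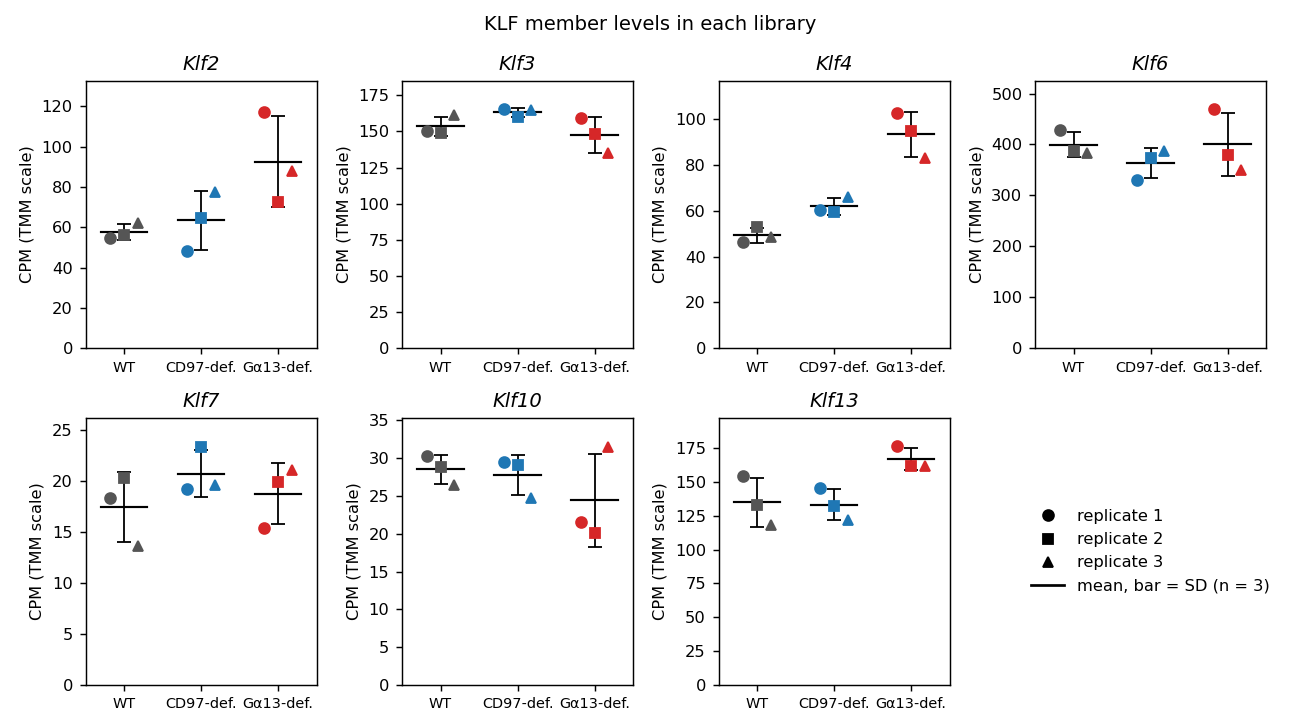
Level of each of the 7 KLF genes in CPM on the TMM scale (linear axes from 0), with a point per library and the mean ± SD of 3 libraries for WT, CD97-deficient and Gα13-deficient cells. Klf4 lay at 46.6 to 52.7 CPM in WT and at 83.0 to 102.6 CPM in Gα13-deficient libraries, whereas the 3 groups of Klf6 and Klf7 overlapped.

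Klf4 (ENSMUSG00000003032.8) lies on the minus strand of chromosome 4 at 55527143 to 55532466, and Klf2 (ENSMUSG00000055148.7) on the plus strand of chromosome 8 at 72319033 to 72321656 (GENCODE annotation of mm10). Their promoters are shown because these are the members that passed the threshold in Gα13-deficient cells. Each runs 5′ to 3′ along the gene's strand from 250 bases before to 50 after the RefSeq start (GRCm38.p6), at chr4:55532426-55532725 on the minus strand for Klf4 and chr8:72318812-72319111 on the plus strand for Klf2. Capitals mark GGGCGG (the GC box) and CACCC on either strand, motifs of the kind that KLF and SP proteins bind.
Klf4: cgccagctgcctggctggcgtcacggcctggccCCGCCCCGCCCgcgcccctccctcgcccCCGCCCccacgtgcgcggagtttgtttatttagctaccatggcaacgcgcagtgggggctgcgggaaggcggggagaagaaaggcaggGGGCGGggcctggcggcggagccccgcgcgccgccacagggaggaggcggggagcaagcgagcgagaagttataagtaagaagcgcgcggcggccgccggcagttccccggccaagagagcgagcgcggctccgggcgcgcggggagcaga
Klf2: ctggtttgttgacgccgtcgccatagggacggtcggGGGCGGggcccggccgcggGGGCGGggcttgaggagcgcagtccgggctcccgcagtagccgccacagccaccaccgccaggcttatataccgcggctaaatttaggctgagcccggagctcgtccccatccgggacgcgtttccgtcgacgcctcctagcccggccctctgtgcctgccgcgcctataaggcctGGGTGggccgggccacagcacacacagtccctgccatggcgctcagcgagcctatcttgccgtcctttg
Klf4 has 4 matches to GGGCGG and 0 to CACCC, and Klf2 has 2 and 1. G and C make up 74.3% of the bases of Klf4 and 69.3% of those of Klf2, against a median of 52.7% over 32851 RefSeq promoters of this length. GGGCGG was found in 6 of the 6 members with a promoter in the table (Klf10 was not matched) and in 35.7% of all promoters. CACCC was found in 4 of 6 members and in 57.5% of all promoters. The MEF2 consensus, searched by its degenerate form on both strands, matched at position -118 of Klf2 and in 0 of the other 5 members, against 3.19% of all promoters. CCAAT was found in 2 of 6 members, Klf6 and Klf13, and in 37.4% of all promoters. The CArG box of SRF (1.63% of all promoters), TGACGTCA (the cAMP response element, 1.79%), TGANTCA (the AP-1 motif, 7.81%), TGTTTAC (a FOXO motif, 3.65%) and TATAAA (13.6%) matched in 0 of 6. GGGCGG and CACCC can overlap by a base or more on opposite strands, and a match in these windows describes letters, not binding.

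Klf6, an early response member with a broad expression, was the most abundant of the 7. It stood at 428, 387 and 384 CPM in WT, at 331, 373 and 387 CPM in CD97-deficient and at 469.9, 379 and 351 CPM in Gα13-deficient libraries. All groups overlapped, and Gα13-deficient replicate 1 was the highest of the 9 libraries, as it was for Klf2 and Klf4 and for the early response genes. The log2 fold change against WT was -0.13 ± 0.10 (-0.36 to 0.09, adjusted p = 0.457) in CD97-deficient and 0.00 ± 0.10 (-0.22 to 0.22, adjusted p = 0.997) in Gα13-deficient cells. Klf7, studied mainly in neurons and adipose tissue, was the lowest, at 18.3, 20.2 and 13.6 CPM in WT, 19.2, 23.3 and 19.6 CPM in CD97-deficient and 15.3, 19.8 and 21.0 CPM in Gα13-deficient libraries. Its groups overlapped too, with log2 fold changes against WT of 0.24 ± 0.18 (-0.15 to 0.63, adjusted p = 0.454) and 0.10 ± 0.18 (-0.29 to 0.49, adjusted p = 0.778). At 80 to 294 counts per library Klf7 was also the member with the fewest counts.

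Klf3, the repressor that binds CtBP, varied least. It stood at 150.3, 149 and 161 CPM in WT, at 165.5, 159.8 and 165 CPM in CD97-deficient and at 159.6, 148 and 135 CPM in Gα13-deficient libraries. The CD97-deficient libraries lay above all Gα13-deficient ones, by little, and both overlapped WT. Its log2 fold changes against WT were 0.09 ± 0.09 (-0.09 to 0.27, adjusted p = 0.550) and -0.06 ± 0.09 (-0.24 to 0.12, adjusted p = 0.718), the narrowest intervals of the 7 genes. Klf10, induced by transforming growth factor β (TGFβ) in many cells, stood at 30.3, 28.8 and 26.5 CPM in WT, 29.5, 29.2 and 24.7 CPM in CD97-deficient and 21.6, 20.2 and 31.5 CPM in Gα13-deficient libraries. In the Gα13-deficient group replicates 1 and 2 lay below all WT libraries and replicate 3 above them, and the log2 fold change was -0.21 ± 0.17 (-0.57 to 0.15, adjusted p = 0.459). For CD97-deficient cells it was -0.04 ± 0.17 (-0.40 to 0.31, adjusted p = 0.903).

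Klf13, an activator of Ccl5 in T cells, stood at 154, 133 and 118 CPM in WT, at 145.5, 132 and 122 CPM in CD97-deficient and at 177, 162 and 162 CPM in Gα13-deficient libraries. The Gα13-deficient libraries lay above every library of the other groups. Against WT the log2 fold change was 0.30 ± 0.10 (0.08 to 0.52), with an unadjusted p of 0.0105 and an adjusted p of 0.0743. It passed when library totals replaced the TMM factors (0.34, adjusted p = 0.0306) and without WT replicate 1 (0.41, adjusted p = 0.0224). The difference between the knockouts was 0.33 ± 0.10 (0.10 to 0.55, adjusted p = 0.629), and that between CD97-deficient and WT cells -0.02 ± 0.10 (-0.24 to 0.20, adjusted p = 0.920). The Klf13 locus overlaps E030018B13Rik on the opposite strand, and the labels do not state whether reads were counted by strand. E030018B13Rik held 17 to 121 counts per library, against 696 to 2271 for Klf13.

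Over the 7 genes, 0 passed the threshold between CD97-deficient and WT cells (1 at an unadjusted p under 0.05, 0 by DESeq2), where 8.53% of the 12043 tested genes passed. Klf4 was the 1 of 7 genes whose groups did not overlap, against 28.2% of all tested genes in either direction and 14.7% for higher ones. Between Gα13-deficient and WT cells 2 of 7 passed, both higher (2 by DESeq2), where 11.0% of tested genes passed in either direction and 5.74% were higher. The groups did not overlap for 3 of 7, Klf2, Klf4 and Klf13, all higher, against 29.6% of all tested genes and 15.5% for higher ones. With so few members, chosen with earlier results of these data known, these shares are descriptions. Between the knockouts 0 of 7 passed (3 at an unadjusted p under 0.05, 1 by DESeq2), where 0.0498% of tested genes passed. Here the groups did not overlap for 3 of 7, with Klf4 and Klf13 higher and Klf3 lower in Gα13-deficient cells, against 13.1% of all tested genes (7.16% higher and 5.99% lower). The median log2 fold change of the 7 genes was 0.09, 0.10 and 0.14 in the 3 comparisons in this order, beside -0.0034, -0.0083 and -0.0033 over all tested genes. The comparisons with WT share the same WT libraries.

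**Figure D2:**
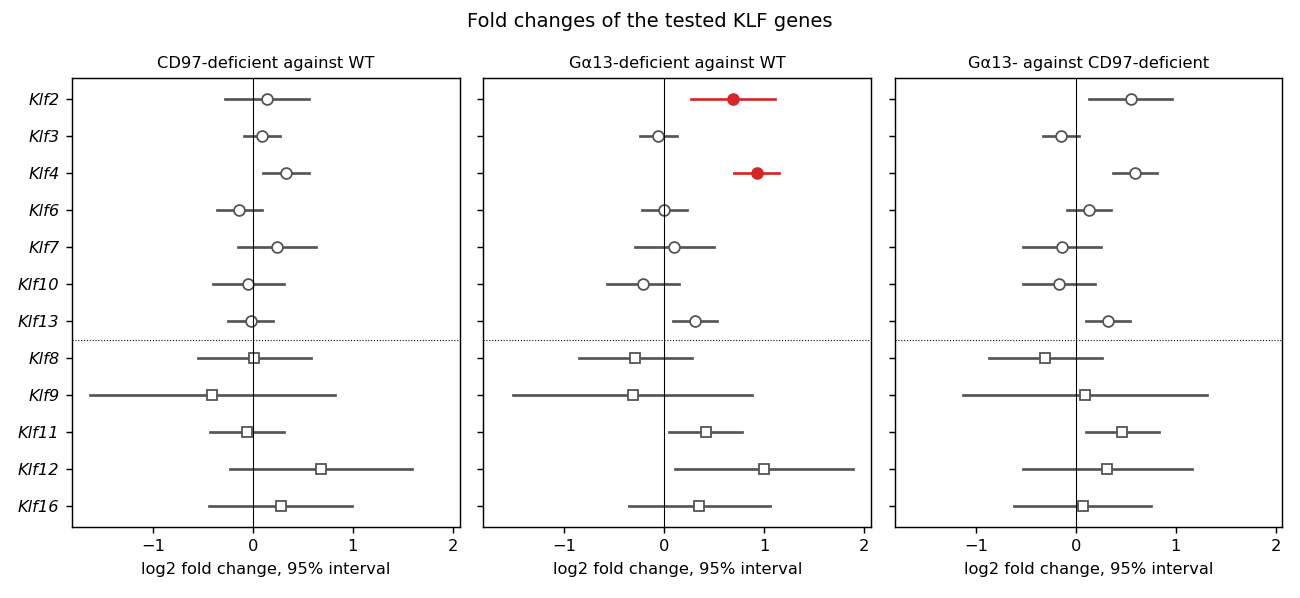
Log2 fold change (x axis) with its 95% interval for each tested KLF gene in the 3 comparisons, circles for the 7 genes described here and squares for the other KLF genes, filled and red where the adjusted p was under 0.05. Klf2 (0.69) and Klf4 (0.92) in Gα13-deficient against WT cells are the filled points.

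Levels can be compared between genes only per length. Per kb of exon, WT cells held Klf6 at 90.99, Klf2 at 31.2, Klf13 at 17.9, Klf4 at 16.2, Klf3 at 13.7, Klf10 at 6.83 and Klf7 at 2.14 CPM per kb (means, n = 3). The ranges of Klf13 and Klf4 overlapped in WT, and those of all other neighbours in this order did not in any of the 3 groups. Klf4 stood above Klf13 in both knockouts, without overlap, at 20.3 against 17.7 CPM per kb in CD97-deficient and 30.6 against 22.2 CPM per kb in Gα13-deficient cells. Among 10866 genes with a length, WT Klf6 ranked 308, above 97.2% of them, Klf2 ranked 1246 (above 88.5%) and Klf7 ranked 8188 (above 24.6%). The 7 genes together summed to 882, 827 and 814 CPM in WT, 799, 842 and 862 CPM in CD97-deficient and 1063, 897 and 871 CPM in Gα13-deficient libraries. Klf6 made up 47.5% of that sum in WT, against 43.6% (CD97-deficient) and 42.2% (Gα13-deficient). Klf4 made up 5.87%, 7.42% and 9.92%, and Klf2 6.87%, 7.56% and 9.74%. Klf6 thus stayed the largest part of the summed CPM in every genotype, and it was also highest per kb. These shares are of CPM not divided by length, so they are not shares of transcripts and weight long genes more.

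**Figure D3:**
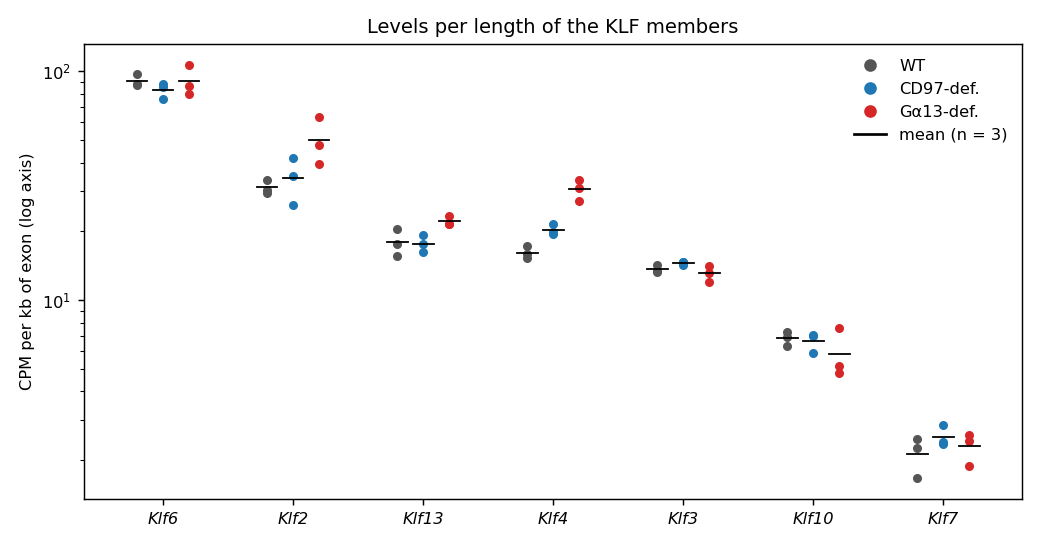
Level of each of the 7 KLF genes in CPM per kb of exon (log axis), ordered by the WT mean, with a point per library and a line for the mean of 3 libraries in each genotype. Klf6 was highest in every genotype (82.9 to 91.1 CPM per kb on average), and Klf4 changed place with Klf13 in the knockouts.

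The members also differed in how far their libraries scattered within a genotype. On the log2 CPM scale, Klf4 had a standard deviation of 0.41 over the 9 libraries and 0.11 within groups, and Klf2 0.39 and 0.29. Klf3 had the smallest spread, 0.095 over all libraries and 0.080 within groups. For Klf7 (0.23 and 0.24) and Klf10 (0.22 and 0.22) the spread within groups was as large as that over all libraries. Klf4 thus rested on tight groups. The scatter of Klf2 lay in the knockouts, with an SD of 22.6 CPM in Gα13-deficient and 14.6 CPM in CD97-deficient libraries. In WT the SD of Klf2 was 4.04 CPM.

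**Figure D4:**
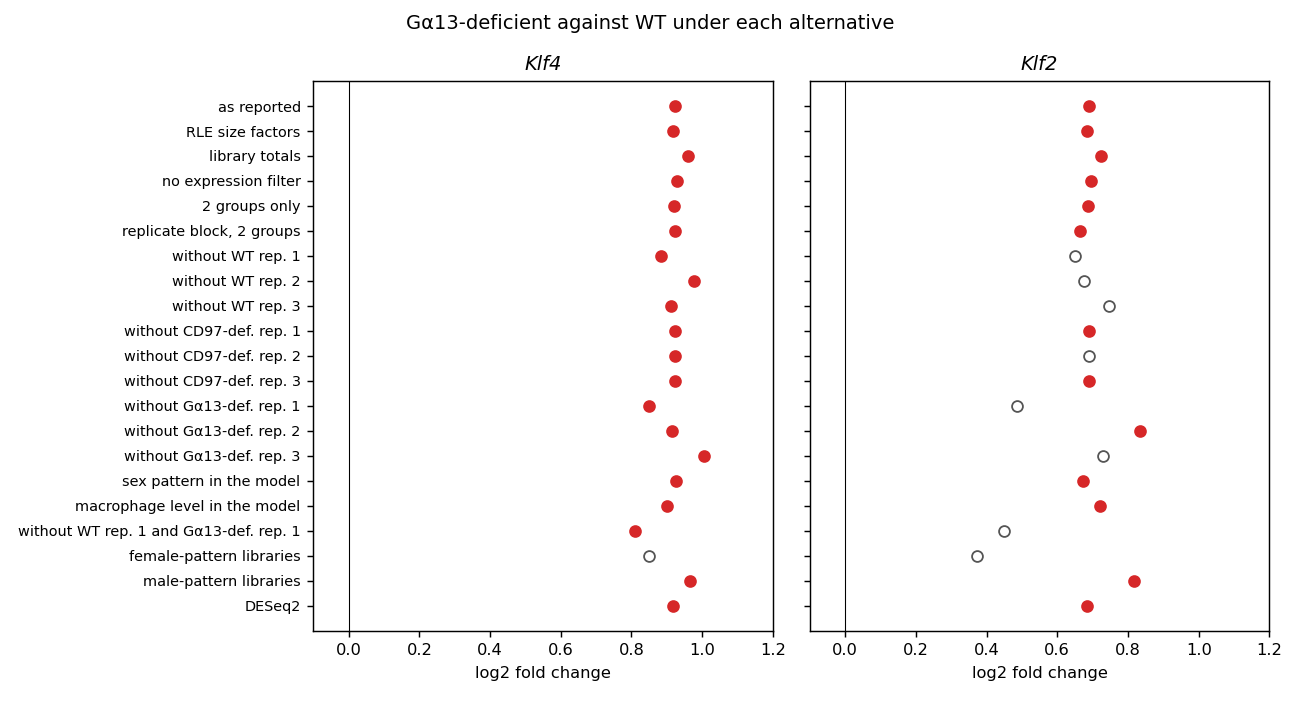
Log2 fold change of Klf4 and Klf2 in Gα13-deficient against WT cells (x axis) as reported and under each alternative (y axis), filled and red where the adjusted p was under 0.05. Klf4 lost its call only within the female-pattern libraries (0.85), while Klf2 lost its call in 6 of the 9 leave-one-out settings and its log2 fold change was 0.37 within the female-pattern libraries.

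The genes most like each member over the 9 libraries were taken by the root-mean-square difference of log2 CPM, each gene centred on its own mean, among 6876 genes with a mean log2 CPM of at least 4. For Klf4, whose own root-mean-square deviation was 0.39, these were Fgfr1 (0.153), a fibroblast growth factor receptor, Tex2 (0.159) and Pold1 (0.163), the catalytic subunit of DNA polymerase δ. For Klf2 (0.37) they were Fam117a (0.188) and Trp53i11 (0.213). For Klf13 (0.188) they were Tspyl1 (0.0527), Igbp1 (0.0741) and the kinase gene Ptk2b (0.075). For Klf6 (0.139) they were the receptor genes Ccrl2 (0.0541) and Tlr2 (0.0597), and Pxk (0.0587). For Klf3 (0.09) they were Dync1li2 (0.042), Ncstn (0.0535) and Foxp1 (0.0538). For Klf10 (0.211) they were Arhgap15 (0.0667), Zhx1 (0.0668) and Rif1 (0.068), and for Klf7 (0.22) Scfd1 (0.0993), Rabif (0.1005) and Mettl16 (0.107). The differences for Klf3 are small because Klf3 itself hardly varied, so closeness there means little change in both genes.

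The table holds 8 further KLF genes. Of these, Klf1, the erythroid factor (0 to 5 counts per library), Klf5 (0 to 14) and Klf15 (0 to 3) were too low to test. Of the 5 tested, 0 passed in any comparison (by comparison, 0, 2 and 1 at an unadjusted p under 0.05 and 0 by DESeq2). Across all tested genes 8.53%, 11.0% and 0.0498% passed, in the same order of comparisons. Klf11, a TGFβ-inducible gene related to Klf10, stood at 24.5, 28.7 and 28.4 CPM in WT, 34.3, 19.5 and 24.4 CPM in CD97-deficient and 37.5, 35.1 and 35.8 CPM in Gα13-deficient libraries. Its Gα13-deficient libraries lay above all others, with a log2 fold change of 0.41 ± 0.17 against WT (adjusted p = 0.141). Of all tested genes, 15.5% were higher without overlap against WT and 7.16% against CD97-deficient cells. Klf12, a CtBP-binding repressor, averaged 2.55 CPM in WT, 4.08 CPM in CD97-deficient and 5.02 CPM in Gα13-deficient cells, with log2 fold changes against WT of 0.68 ± 0.43 (adjusted p = 0.353) and 0.997 ± 0.42 (adjusted p = 0.146). Klf8 averaged 19.4 CPM in WT, 19.5 CPM in CD97-deficient and 15.6 CPM in Gα13-deficient cells. Klf16 averaged 3.86, 4.61 and 4.74 CPM and Klf9 1.12, 0.84 and 0.88 CPM in the same order. The related SP factors bind similar GC boxes. Sp1 averaged 345, 369.9 and 364 CPM, Sp2 66.9, 76.2 and 74.9 CPM, Sp3 139, 140.4 and 141 CPM and Sp4 47.9, 48.8 and 46.2 CPM in WT, CD97-deficient and Gα13-deficient cells, and 0 of these 4 passed in any comparison (0 at an unadjusted p under 0.05, 0 by DESeq2). Sp6 held 3 to 21 counts per library and was not tested.

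Among 17 genes that act upstream of KLF transcription (the ERK5 kinase cascade, MEF2 and FOXO factors, TGFβ receptors and SMADs, and class II histone deacetylases), 1 passed in CD97-deficient cells. Map3k3, which encodes MEKK3 at the head of the ERK5 cascade, stood at 161, 147 and 157 CPM in WT and at 113, 140.1 and 114 CPM in CD97-deficient libraries (-0.35 ± 0.10, adjusted p = 0.0398). Its adjusted p missed the threshold without WT replicate 1 (0.0981), WT replicate 3 (0.0752), CD97-deficient replicate 1 (0.153), CD97-deficient replicate 3 (0.173), Gα13-deficient replicate 1 (0.0513) or Gα13-deficient replicate 2 (0.0611), and with the sex pattern (0.251) or the macrophage level (0.135) in the model. It also missed with library totals (0.0599), 2 groups only (0.0629), the replicate block (0.0769) and without both replicate 1 libraries of WT and Gα13-deficient cells (0.129). In Gα13-deficient cells, where Klf2 and Klf4 rose, 0 of 17 passed (2 at an unadjusted p under 0.05, 0 by DESeq2). Map3k3 there stood at 137, 131 and 124 CPM, and Mapk7, the gene for ERK5, at 53.2, 56.5 and 52.8 CPM against 54.8, 48.5 and 63.5 CPM in WT. Mef2a and Mef2c, with log2 fold changes of 0.03 and -0.18 in Gα13-deficient cells, were also short of the threshold (adjusted p = 0.85 and 0.40).

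Of 7 ubiquitin ligase genes that act on KLF proteins, 0 passed in CD97-deficient cells (1 at an unadjusted p under 0.05, 0 by DESeq2) and 1, Wwp1, in Gα13-deficient cells. Wwp1, whose product ubiquitinates KLF2 among other KLF proteins, fell from 46.9, 51.0 and 47.7 CPM in WT to 37.0, 33.6 and 35.1 CPM (-0.46 ± 0.10, adjusted p = 0.0106). The call was lost without Gα13-deficient replicate 2 (0.0519) and within either sex pattern (0.109 for the male-pattern libraries). Within the female-pattern libraries, 1 per group, the log2 fold change was -0.60. The CD97-deficient libraries lay between WT and Gα13-deficient ones, at 40.3, 39.9 and 38.9 CPM. Among 11 corepressor genes, 1 passed in CD97-deficient and 2 in Gα13-deficient cells, all higher. Hdac2 was higher in both knockouts, at 57.2, 60.1 and 51.6 CPM in WT, 80.3, 75.2 and 79.0 CPM in CD97-deficient and 71.7, 82.7 and 90.7 CPM in Gα13-deficient libraries (0.47 ± 0.11, adjusted p = 0.0148, and 0.54 ± 0.11, adjusted p = 0.0051). The Gα13-deficient call held in 9 of 9 leave-one-out fits. The CD97-deficient one was lost without CD97-deficient replicate 1 (0.0562) or 3 (0.0608), and with the sex pattern (0.144) or the macrophage level (0.0536) in the model. Ctbp1, Ctbp2, Sin3a and Sin3b, the genes for the partners of Klf3, Klf10 and Klf13, passed in neither comparison with WT. Of 5 coactivator genes, including Ep300 and Crebbp for p300 and CBP, 0 passed in any comparison (1, 2 and 0 at an unadjusted p under 0.05, 0 by DESeq2). In CD97-deficient and Gα13-deficient cells the median log2 fold changes were -0.04 and -0.04 for the upstream genes, -0.09 and -0.12 for the ligases, 0.16 and 0.18 for the corepressors and -0.09 and -0.0029 for the coactivators, beside medians near 0 over all tested genes. The counts stand beside 8.53% and 11.0% of all tested genes that passed in the same fits.

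KLF2 is known to control genes of lymphocyte trafficking, and 12 of 13 such genes were tested (the endothelial Nos3 was too low). In Gα13-deficient cells 2 of 12 were higher (2 by DESeq2) and 0 lower, beside 5.74% of all tested genes that were higher. The list median was 0.33, and Itgb7 is the one of these 2 described here. Itgb7, the β7 integrin subunit, stood at 154, 159 and 154 CPM in WT, at 219, 218 and 200.2 CPM in CD97-deficient and at 225, 228 and 211 CPM in Gα13-deficient libraries. Both knockouts lay above WT without overlap (0.45 ± 0.08, adjusted p = 0.00292, and 0.51 ± 0.08, adjusted p = 0.000871), and both calls held in 9 of 9 leave-one-out fits. With the sex pattern in the model the CD97-deficient call was lost (adjusted p = 0.052). S1pr1, the egress receptor gene often read beside KLF2 in T cells, stood at 0.17 to 2.84 CPM in WT and 1.39 to 3.28 CPM in Gα13-deficient libraries (0.69, adjusted p = 0.59). In CD97-deficient cells Itgb7 was the 1 of 12 that passed, beside 8.53% of all tested genes, and the list median was 0.09.

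The 22 early response genes share fast induction with several KLF genes and are sensitive to cell handling. Their summed level was 5627, 4782 and 3743 CPM in WT, 3381, 3409 and 3240 CPM in CD97-deficient and 6706, 4548 and 4776 CPM in Gα13-deficient libraries. The CD97-deficient libraries were thus lowest, while WT and Gα13-deficient libraries overlapped. Between CD97-deficient and WT cells 3 of 22 were lower, Dusp2 (-0.57, adjusted p = 0.0305), Nr4a3 (-0.83, 0.0366) and Egr2 (-1.18, 0.0458), with a list median of -0.57. In that comparison 10 of 22 had an unadjusted p under 0.05 and DESeq2 called 7, and 8.53% of all tested genes passed. Between Gα13-deficient and WT cells Nr4a3 (-0.91, 0.0183) and Mcl1 (-0.37, 0.0480) were lower and 0 higher, with a list median of 0.28 (4 of 22 at an unadjusted p under 0.05, 3 by DESeq2). Here 11.0% of all tested genes passed. All 5 early response calls depended on single libraries. In CD97-deficient cells Dusp2 was lost without WT replicate 3 or CD97-deficient replicates 1 or 3 (adjusted p 0.0896 to 0.132), Nr4a3 without WT replicates 1 or 2 or CD97-deficient replicates 1 or 3 (0.0957 to 0.139), and Egr2 in 7 of 9 fits (kept without WT replicate 3 or Gα13-deficient replicate 1, otherwise 0.0565 to 0.184). These 3 were also lost with the sex pattern in the model (0.293, 0.0599 and 0.216) and with the macrophage level in it (0.109, 0.0642 and 0.056). In Gα13-deficient cells Nr4a3 was lost without WT replicates 1 or 2 or Gα13-deficient replicates 1 or 3 (0.0558 to 0.0745), and Mcl1 in 6 of 9 fits (kept without WT replicate 2, CD97-deficient replicate 2 or Gα13-deficient replicate 1, otherwise 0.0578 to 0.187). Between the knockouts the list median was 0.74, and 0 of 22 passed in edgeR, where 0.0498% of all tested genes passed. At an unadjusted p under 0.05 there were 15 of 22, and DESeq2 called 5. No share of all tested genes was taken for these last 2 counts. Klf4 and Klf2 were highest in the Gα13-deficient library with the highest early response level, and without it and WT replicate 1 their log2 fold changes were 0.81 and 0.45. The part of this level in the Klf2 and Klf4 results was not tested beyond those values.

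Markers of other cells were read beside the KLF genes because KLF4 is high in monocytes and KLF2 in lymphocytes and endothelium. Of 11 monocyte markers 10 were in the table, with a summed level of 435 to 653 CPM in WT, 501 to 684 CPM in CD97-deficient and 633 to 790.2 CPM in Gα13-deficient libraries. Of the 9 tested, 1 was higher in Gα13-deficient cells, Cx3cr1 (1.53, adjusted p = 0.0122, and 0.056 without WT replicate 3), beside 5.74% of all tested genes. The defining markers Ly6c2 and Ccr2 averaged 2.23 and 22.01 CPM in WT against 9.07 and 38.4 CPM there. Both were short of the threshold (2.03, adjusted p = 0.0694, and 0.82, adjusted p = 0.246). In CD97-deficient cells their log2 fold changes against WT were -0.15 and 0.12. In Gα13-deficient cells 8 of the 9 had a log2 fold change above 0, and Treml4 was lower (-0.22, adjusted p = 0.338). The 8 plasmacytoid dendritic cell markers summed to 154 to 212 CPM in WT, 171 to 195 CPM in CD97-deficient and 218 to 334 CPM in Gα13-deficient libraries, above both other groups. In the latter 2 of 8 were higher than in WT, beside 5.74% of all tested genes. They were Cox6a2 (2.89, adjusted p = 0.000468) and Tcf4 (0.40, adjusted p = 0.0149, lost without WT replicate 3 at 0.0543 or Gα13-deficient replicate 1 at 0.0671). The 8 markers of type 1 conventional dendritic cells summed to 146 to 238 CPM in WT, 155.5 to 237 CPM in CD97-deficient and 221 to 285 CPM in Gα13-deficient libraries. Xcr1, a defining chemokine receptor of that class, averaged 6.25 CPM in WT, 15.4 CPM in CD97-deficient and 14.4 CPM in Gα13-deficient cells (1.32, adjusted p = 0.0409, and 1.22, adjusted p = 0.0472), calls that held in 2 of 9 and 3 of 9 leave-one-out fits. These Xcr1 calls were lost without any of WT replicates 1 or 3, CD97-deficient replicate 1 or Gα13-deficient replicates 1, 2 or 3, and the CD97-deficient one also without CD97-deficient replicate 3 (0.0532 to 0.15 in all). Batf3, a transcription factor gene of that class, was lower in Gα13-deficient cells (-0.43, adjusted p = 0.0306), and its call was lost without WT replicates 1, 2 or 3 or Gα13-deficient replicates 1 or 3 (0.0507 to 0.116). The 15 macrophage markers in the table summed to 708 to 1750.0 CPM in WT, 838.5 to 2224 CPM in CD97-deficient and 933 to 1308 CPM in Gα13-deficient libraries, overlapping in all groups. Against WT, 1 was higher and 1 lower in CD97-deficient cells, and 1 was lower in Gα13-deficient cells. Across all tested genes 8.53% and 11.0% passed in these comparisons. With the mean level of the macrophage markers in the model, the log2 fold change of Klf4 in Gα13-deficient against WT cells was 0.90 (adjusted p = 0.00012) and that of Klf2 0.72 (adjusted p = 0.042). T and NK cell markers summed to 4.42 to 10.1 CPM in WT, 6.74 to 12.2 CPM in CD97-deficient and 11.6 to 13.6 CPM in Gα13-deficient libraries, where they lay above WT without overlap. Of the 3 tested, 0 passed and 2 (Cd3d, 1.19, adjusted p = 0.175, and Ncr1, 2.31, adjusted p = 0.116) lay above WT without overlap. Across all tested genes 15.5% did so. B cell markers summed to 67.8 to 79.5 CPM in WT, 66.1 to 111 CPM in CD97-deficient and 52.0 to 71.1 CPM in Gα13-deficient libraries. Of the 8 tested, 0 passed in CD97-deficient cells (3 at an unadjusted p under 0.05, 1 by DESeq2) and 1, lower, in Gα13-deficient cells. Of 10 endothelial and stromal markers 4 were in the table, and Pecam1, which dendritic cells also express, made up most of their 121 to 143 CPM. The part of monocytes, plasmacytoid and type 1 dendritic cells, or T and NK cells in the Klf2 and Klf4 differences was not tested.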

How the data were processed

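The values are raw read counts per gene, deposited by the authors in 1 table. The submitters' processing notes name STAR, HTSeq, DESeq2 and mm10, without versions or roles. WT columns were matched to samples through source names, which number them differently from the titles. The lowest total of a gene over the 9 libraries was 10 counts. The test was the quasi-likelihood F-test of edgeR 4.0.16 (R 4.3.3; TMM factors, default expression filter, robust fit, genotype as the factor, 9 libraries in 1 fit). The filter left 12043 genes and removed 2166. Benjamini-Hochberg adjustment ran over all tested genes with a threshold of 0.05. Standard errors came from the F statistic. Replicates differed beyond counting noise, and the common biological coefficient of variation was 0.15.

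Log2 CPM used a prior count of 2. CPM per kb used the union of GENCODE exons, with 12797 symbols matched and 1412 not. Alternatives were RLE factors, library totals, no filter, 2 groups only, a replicate block, the sex pattern or macrophage level as a covariate, each sex pattern alone, each library left out, and DESeq2 1.42.0. Leaving out WT replicate 1 and Gα13-deficient replicate 1 together, and all alternatives for genes other than the 7, were added after seeing the data. The 7 members and all lists were chosen with earlier results of these data known. All KLF and SP genes are named, and from each list read beside them genes past the threshold, at most 4 per comparison, or values where none passed. Some further genes, Mapk7, Mef2a, Mef2c, S1pr1, Ly6c2 and Ccr2 among them, are named for their role and were chosen after their values were seen. A few genes that these rules select are not reported here. From the marker lists only genes beside a KLF result are named.

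Titles share replicate numbers. Same-number libraries of WT and Gα13-deficient cells deviated together in 3 of 3 pairs (correlation 0.111 to 0.179), a pairing seen in the data and not stated in the labels. In both groups replicate 2 had the female pattern and replicates 1 and 3 the male pattern. The part of the sex pattern in these correlations was not tested.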

Additional observations from a re-analysis of the deposited data

Results flagged for a closer look

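Cox6a2, a marker of plasmacytoid dendritic cells and the 1 gene of the named lists whose change differed between the knockouts, averaged 9.49 CPM in Gα13-deficient, 0.86 CPM in CD97-deficient and 1.23 CPM in WT cells. The difference between the knockouts was 3.44 on the log2 scale (adjusted p = 0.00241, edgeR). Of the 8 plasmacytoid markers it was the 1 that passed between the knockouts, with 5 at an unadjusted p under 0.05 and 8 above 0. Cox6a2 overlaps Itgad on the other strand, and unstranded counting would not separate their reads. Cre under the CD11c promoter is named only for the Gα13-deficient cells. An effect of that transgene on Cox6a2 cannot be told apart from one of the deletion or of the share of plasmacytoid cells. None of the 7 KLF genes differed past the threshold between the knockouts in the same fit, with 3 of 7 at an unadjusted p under 0.05 and 1 of 7 called by DESeq2.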

How the results depend on the processing

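Klf4 in Gα13-deficient against WT cells kept its direction under every alternative run and its call under all but the female-pattern libraries, where every call named from the other lists was also lost. Klf2 kept its direction. With 3 libraries per group, the intervals of Klf3, Klf6, Klf7 and Klf10, not their missing calls, bound their changes. Genes called between CD97-deficient and WT cells numbered 364 to 1271 without 1 library, 222 with the sex pattern as a covariate, 537 with the macrophage level, 34 within female-pattern libraries and 457 without WT replicate 1 and Gα13-deficient replicate 1 together (1027 as reported). KLF members called there were 1 with library totals. For Gα13-deficient against WT cells the genes numbered 693 to 1459 without 1 library, 676 without both libraries and 12 within female-pattern libraries (1322 as reported), and the members 1 to 2 without 1 library, 1 without both and 0 within female-pattern libraries. Between the knockouts the genes numbered 4 to 25 without 1 library, 11 with no filter, 53 with 2 groups only, 73 with the replicate block, 14 with the macrophage level, 3 within female-pattern libraries and 54 with DESeq2 (6 as reported), and the members 0 to 1 without 1 library and 1 with no filter, 2 groups only, the macrophage level or DESeq2. The causes were not tested.

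The replicate block gave 789, 1188 and 73 genes and changed no call of a KLF member. Between Gα13-deficient and WT cells, where the numbers paired, Klf4 had an adjusted p of 0.00072 and Klf2 of 0.0151 with the block. For CD97-deficient and WT cells 0 of 3 pairs correlated above 0.1, with 0 of 6 libraries closest to their own number, and for the knockouts 0 of 3, with 1 of 6.

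Some members near 0 and short of the threshold changed sign. For CD97-deficient against WT cells Klf10 was 0.0062 with library totals, 0.0762 with the sex pattern, 0.0034 without both libraries and -0.0927 to 0.0362 without 1 library. Klf13 was 0.0290, 0.0110, 0.0846 and -0.11 to 0.08 in the same order, and Klf2 -0.0303 to 0.3045 without 1 library. For Gα13-deficient against WT cells Klf6 was -0.0055 with RLE factors, -0.0007 with 2 groups only, -0.0085 with the replicate block, -0.0001 with the sex pattern, -0.0790 without both libraries, -0.0241 within female-pattern libraries, -0.0035 with DESeq2 and -0.13 to 0.0888 without 1 library. Klf7 was -0.0269 within female-pattern libraries and -0.0405 to 0.23 without 1 library (0.2656 without both libraries), and Klf3 -0.12 to 0.0041 without 1 library. Between the knockouts Klf7 was 0.0173 with the sex pattern. Library totals moved the median of all genes by 0.0496, 0.0373 and -0.0118 on the log2 scale in the 3 comparisons.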
